A study of Mus musculus with 441 samples.

Results

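Single neural precursor cells were compared by how much mRNA of 4 mitotic genes they carried. For each of the 54 precursors profiled one by one, the deposited natural-log values of Ccnb1, Plk1, Cdc20 and Top2a were added, and the groups were chosen by that sum: the 18 cells with the highest sum (high-sum cells) were set against the 18 with the lowest (low-sum cells). These 36 cells are 36 of the 441 samples of the series, each of which is 1 cell or 1 library, and the 18 precursors between them are described alongside. The precursors were made in culture from v6.5 mouse embryonic stem cells (mESCs), a wild-type line, by selection in ITSFn medium and growth in N2 medium with bFGF on laminin. The series design calls them nestin-positive. They were caught on a microfluidic C1 chip, amplified by SMARTer template switching and sequenced as 25-base read pairs. Both groups share this genotype and treatment, and no label names a replicate culture or batch among these cells. The series also holds single mESCs, and 4 of their plates are used below: a pair of v6.5 plates in serum and LIF with 90 and 93 cells, 94 v6.5 cells in 2i and LIF, and 84 Dgcr8-/- cells, which lack a microRNA-processing factor, in serum and LIF.

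A dividing cell copies its DNA in S phase and builds the mitotic machinery in G2. Cyclin A and cyclin B with Cdk1, the Aurora and Polo kinases, the kinetochore, the spindle motors and the condensins then carry it through mitosis, and the anaphase-promoting complex destroys many of these proteins on the way out. Many of the genes are transcribed together late in the cycle by a program that uses B-Myb, FoxM1 and the CCAAT-binding factor NF-Y, and are held down in resting cells by the DREAM complex. In neural precursors, D-type cyclins link growth factors such as FGF to entry into S phase.

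The 4 genes of the sum encode cyclin B1, Polo-like kinase 1, the mitotic activator of the anaphase-promoting complex and the DNA topoisomerase that untangles sister chromosomes. The sum ran from 15.9 to 24.7 in high-sum cells (median 21.2), from 9.38 to 15.8 in the cells between, and from 2.34 to 8.88 in low-sum cells (median 6.82). The values were continuous at the edges of the groups. The lowest high-sum cell had 15.87 and its neighbour outside had 15.77, and the highest low-sum cell had 8.88 against 9.38 outside. Ccnb1 alone parted the groups, at 32.5 TPM or more in high-sum cells and at or below 23.9 in low-sum cells. TPM is a length-normalised share of a cell's mRNA, scaled to a similar total in every cell. The other genes of the sum overlapped between the groups. Among low-sum cells Plk1 reached 542 TPM, Top2a 343 and Cdc20 150. Plk1 and Cdc20 were each at 0 in at least 1 high-sum cell.

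**Figure D1:**
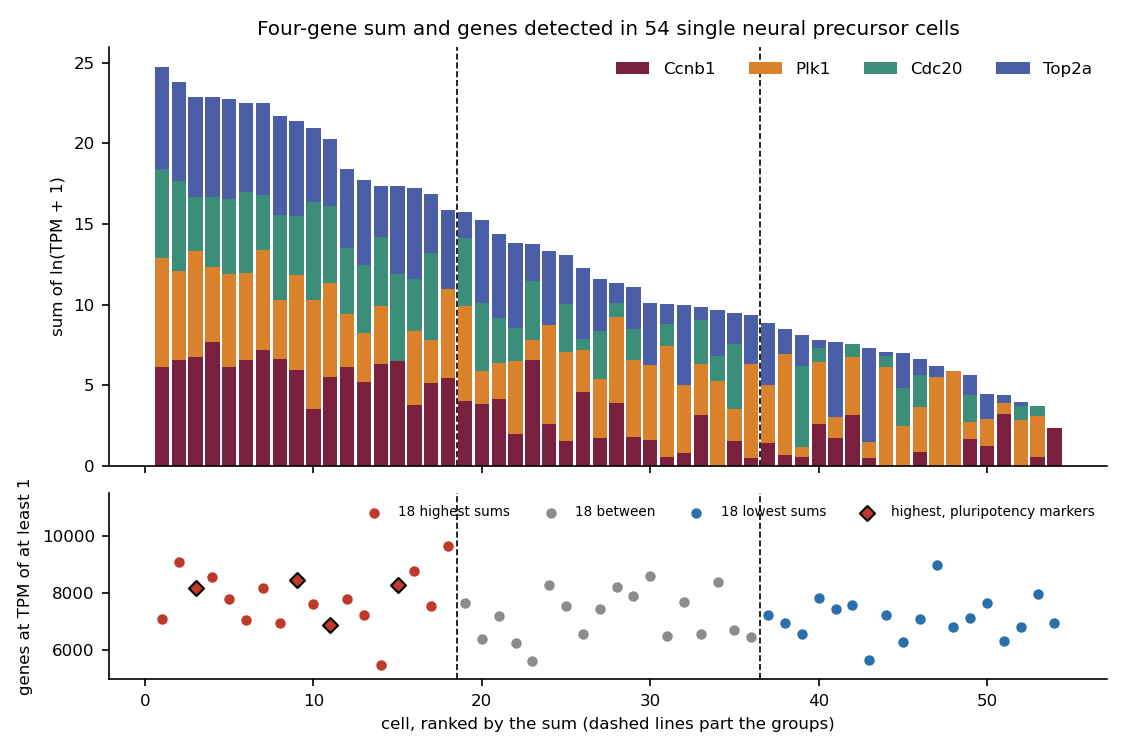
Upper panel, the sum of ln(TPM + 1) of Ccnb1, Plk1, Cdc20 and Top2a in each of the 54 precursors, stacked by gene and ranked. Lower panel, the number of genes at a TPM of at least 1 in the same cells, with diamonds for the 4 high-sum cells that carry pluripotency markers. The sum falls without a step at either dashed line, and the numbers of genes detected overlap between the groups.

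No label states how many cultures or batches the 54 cells came from. The groups were cut from a measured sum, and every other gene of the same cells belongs to that contrast. All values are therefore descriptions, with no test, and the spread quoted is that between cells. Genes detected at a TPM of at least 1 ranged from 5476 to 9662 in high-sum cells and from 5654 to 8969 in low-sum cells, and across the 54 cells their number had a Spearman correlation of 0.29 with the sum. Among high-sum cells 12 of 18 came from rows A to D of the plate, against 8 of 18 low-sum cells. Read depth is unknown, since TPM keeps no trace of it. The part of genes detected and of plate position in the differences was not tested beyond the 2 adjusted values given below.

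The name "non-cycling" was not borne out by every proliferation gene in the low-sum cells. Mki67, the classic marker of proliferating cells, was at a TPM of at least 1 in 12 of 18 low-sum cells (66.7%, exact binomial 95% interval 40.99 to 86.7%) and in 17 of 18 high-sum cells. Pcna, the sliding clamp of the replication fork, was detected in 16 of 18 low-sum cells, and Rrm2, the S-phase subunit of ribonucleotide reductase, in 12 of 18. Birc5, the survivin subunit of the chromosomal passenger complex, was detected in 16 of 18. Other genes were rarer there. Aurkb was detected in 2 of 18 low-sum cells (15 high-sum), Ccna2 in 4 (14), Ccnb2 in 8 (16) and Mcm2 in 8 (14). In high-sum cells Pcna was detected in 17 of 18, and Rrm2 and Birc5 in 18 of 18. Levels differed both for Pcna and Birc5, with similar detection, and for Mki67 and Rrm2. Low-sum medians were 4.195 TPM for Mki67 (high-sum 25.35), 28.45 for Pcna (250), 7.815 for Rrm2 (159) and 4.86 for Birc5 (441). The intervals cover counting error only. The groups are accordingly called by their sum and not as cycling and resting cells.

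The precursor identity was also checked against its markers. Vim, an intermediate filament of neural stem cells, was detected in all 54 cells, and Nes (nestin) and Pax6, a forebrain and eye progenitor factor, in 49 each. Sox2 was detected in 41 cells and Sox1, the earliest neuroectoderm factor, in 16. Gfap of astrocytes was listed at 0 in all 54, and Aldoc, another astrocyte gene, was detected in 31. Of neuronal genes, Tubb3 was detected in 20 cells, Stmn2 in 12 and Dcx in 3. Slc1a3, another precursor marker, was detected in 28 cells, and no values are listed under the precursor marker name Fabp7. Cryaa, a lens crystallin, was present in all 54 cells, from 31.3 to 48274 TPM. In addition, 4 high-sum cells and no other precursor had at least 3 of the 4 pluripotency markers Pou5f1, Nanog, Esrrb and Zfp42 at a TPM of at least 10, and the main counts are also given without them below.

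Between the groups, 13855 names with a mean TPM of at least 1 over the 54 cells were compared by the difference in mean log2(TPM + 1), high-sum minus low-sum. A difference of 2, or 4-fold on this scale, was called. The scale understates changes of low genes. In all, 543 names were at least 2 higher in high-sum cells (3.92% of those compared) and 69 at least 2 lower (0.498%). The median difference over all names was 0.23, so the whole distribution leaned toward high-sum cells. Centring each cell on its widely detected genes moved that median to -0.10, and the higher share of the called names went from 88.7% to 63.6% (313 higher and 179 lower). With a linear term for genes detected, 419 were higher and 193 lower (68.5% higher).

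The genes with the largest positive differences were almost all mitotic. Ube2c, the ubiquitin-conjugating enzyme of the anaphase-promoting complex, ranged from 27.2 to 2048 TPM in high-sum cells (median 791) and from 0 to 227 in low-sum cells (median 12.6), a difference of 5.35. The ranges overlapped, but 16 of 18 high-sum cells lay above the highest low-sum cell. Birc5 ranged from 41.5 to 689 TPM (median 441) against 0 to 454 (median 4.86), a difference of 5.24, and 1 low-sum cell lay above the median of the high-sum cells. Lbr, the lamin B receptor of the inner nuclear membrane, which also has a sterol reductase domain, ranged from 1.47 to 815 TPM (median 390) against 0 to 225 (median 0.299), a difference of 5.14. Lbr was the member of this group least tied to mitosis by its textbook role.

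Cdca3, a trigger of mitotic entry, had a difference of 5.01, with 16 of 18 high-sum cells above every low-sum cell. Aurkb, the kinase of the chromosomal passenger complex, ranged from 0 to 572 TPM in high-sum cells (median 38.4) and from 0 to 6.13 in low-sum cells, of which 2 reached a TPM of 1. Its difference was 4.89. Near-absence from low-sum cells set Aurkb apart from Birc5, its partner in the same complex, which most low-sum cells still carried. Aurka, the centrosome kinase that activates Plk1, had a difference of 4.56 and was detected in 18 of 18 high-sum and 8 of 18 low-sum cells. The other members of the top group were Mad2l1 of the spindle checkpoint (4.59), the cytokinesis regulator Racgap1 (4.57), the kinesin Kif20b (4.49), the condensin subunit Ncapg (4.48), the checkpoint kinase Bub1 (4.46) and borealin, Cdca8 (4.42).

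Kif20b followed the sum most closely over the 54 cells, among names detected in at least 27 of them (Spearman 0.76). Next came Cks2, a small subunit of Cdk1 complexes, at 0.71, then Ube2c and the checkpoint kinase Bub1b at 0.69 each and the tubulin Tubb5 at 0.69. These correlations come from the same cells and libraries as the sum and are part of the same contrast.

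**Figure D2:**
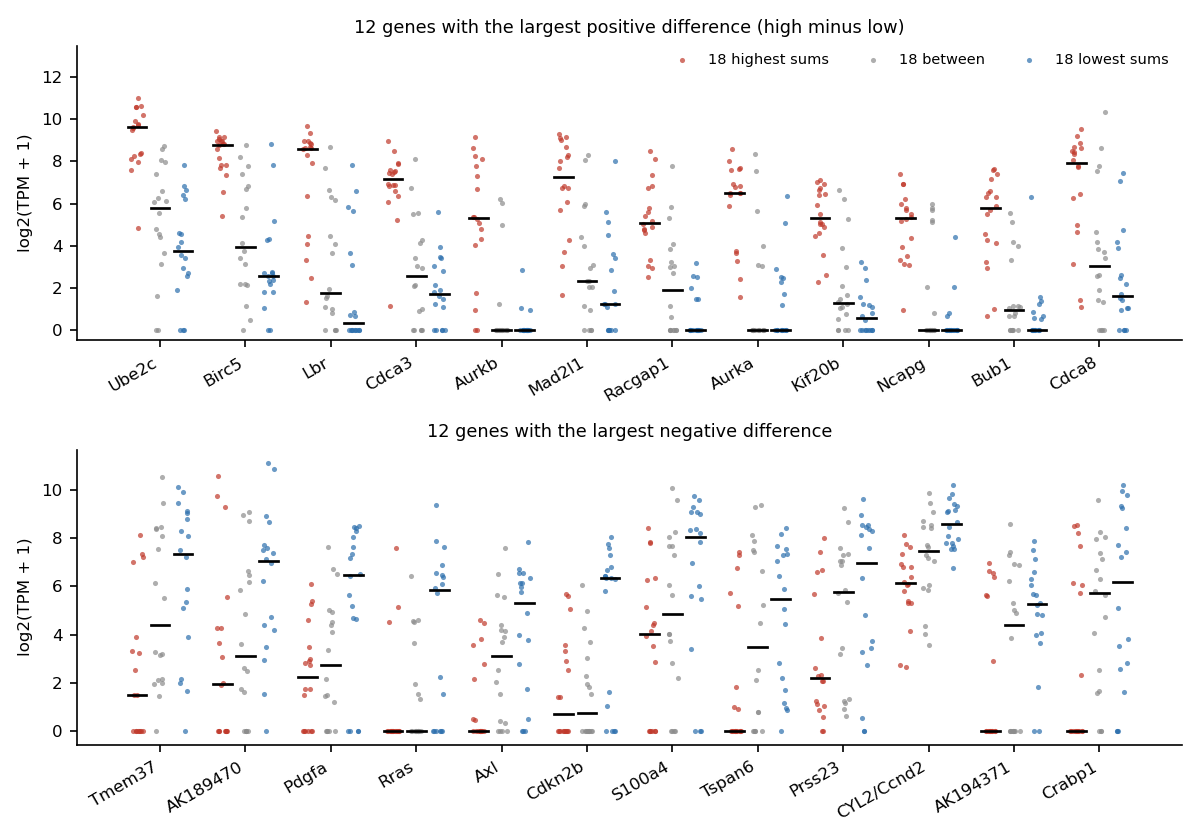
log2(TPM + 1) in each of 54 precursors for the 12 names with the largest positive and the 12 with the largest negative difference, each with 3 columns of points for high-sum, intermediate and low-sum cells. Black bars are medians. The low-sum points of Aurkb and Ncapg lie mostly near 0, whereas those of Ube2c and Birc5 spread upward from it (detected in 15 and 16 of 18). Among the lower genes, most high-sum cells still carried S100a4 (12 of 18) and Prss23 (14 of 18), and all carried Ccnd2.

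The promoters of these genes are shown because NF-Y binds CCAAT boxes in many G2 and mitosis genes, and because DREAM binds the cell-cycle homology region, TTTGAA or TTCGAA, near the start of many of them. The sequences are the 150 bases before the annotated start in RefSeq (mouse build GRCm38.p6), 5' to 3' on the gene's strand, with CCAAT boxes and both forms of the homology region in capitals wherever they occur on either strand.
Ube2c, chr2:164769779-164769928, plus strand: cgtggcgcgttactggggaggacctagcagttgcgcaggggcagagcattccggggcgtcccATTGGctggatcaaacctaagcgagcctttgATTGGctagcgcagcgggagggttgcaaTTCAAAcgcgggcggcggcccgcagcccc
Lbr, chr1:181842402-181842551, minus strand: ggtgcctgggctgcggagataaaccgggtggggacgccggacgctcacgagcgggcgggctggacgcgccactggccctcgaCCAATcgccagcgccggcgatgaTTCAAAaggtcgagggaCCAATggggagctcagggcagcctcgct
Aurka, chr2:172370571-172370720, minus strand: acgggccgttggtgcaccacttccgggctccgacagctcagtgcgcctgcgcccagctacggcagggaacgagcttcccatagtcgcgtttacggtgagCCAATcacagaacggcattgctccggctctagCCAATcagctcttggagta
Bub1, chr2:127831860-127832009, minus strand: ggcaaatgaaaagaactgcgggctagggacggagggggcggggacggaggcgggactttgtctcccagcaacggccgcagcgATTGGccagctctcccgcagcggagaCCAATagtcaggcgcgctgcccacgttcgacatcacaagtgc
Cdca8, chr4:124936918-124937067, minus strand: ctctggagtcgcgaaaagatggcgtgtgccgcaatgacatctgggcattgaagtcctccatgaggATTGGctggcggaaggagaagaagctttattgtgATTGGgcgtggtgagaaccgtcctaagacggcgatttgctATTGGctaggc
Ncapg, chr5:45669775-45669924, plus strand: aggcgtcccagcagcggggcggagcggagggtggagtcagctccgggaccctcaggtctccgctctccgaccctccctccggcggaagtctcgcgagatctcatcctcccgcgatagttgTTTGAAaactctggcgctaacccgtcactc
Birc5, chr11:117849087-117849236, plus strand: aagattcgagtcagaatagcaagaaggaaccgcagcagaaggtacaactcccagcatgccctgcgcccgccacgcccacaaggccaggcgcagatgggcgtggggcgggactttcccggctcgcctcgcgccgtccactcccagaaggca
Ube2c and Lbr hold a pair of CCAAT boxes and 1 homology-region match each, Aurka and Bub1 a pair of CCAAT boxes, Cdca8 3 of them, and Ncapg only the homology-region match. Birc5 holds neither motif here, and nor do Mad2l1 and Kif20b, so the set was picked to show both cases. The next 3 promoters belong to genes lower in high-sum cells and hold none of these motifs. Not all promoters of the low genes lack them. Some Rras promoters hold a CCAAT box, at -103 or -21 bases from the start, and a Prss23 promoter holds TTTGAA at -86.
Tmem37, chr1:120073781-120073930, minus strand: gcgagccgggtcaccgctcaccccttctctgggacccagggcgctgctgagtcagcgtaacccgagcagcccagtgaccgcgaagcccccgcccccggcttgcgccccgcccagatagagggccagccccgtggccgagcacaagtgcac
Cdkn2b, chr4:89311033-89311182, minus strand: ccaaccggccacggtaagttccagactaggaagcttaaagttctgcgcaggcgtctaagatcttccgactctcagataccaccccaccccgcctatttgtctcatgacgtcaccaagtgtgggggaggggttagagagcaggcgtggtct
Crabp1, chr9:54764598-54764747, plus strand: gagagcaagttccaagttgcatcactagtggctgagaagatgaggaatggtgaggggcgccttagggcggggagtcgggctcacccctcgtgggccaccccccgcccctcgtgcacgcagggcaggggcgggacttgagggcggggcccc
Over the 250 bases before the start, CCAAT occurred in 8 of 11 matched genes among the 12 with the highest differences. Among the 12 with the lowest it occurred in 1 of 9. A gene counted here if any of its promoters held the motif, whereas the shares that follow count single promoters. Over the same bases, CCAAT on either strand occurred in 33.8% of all 32851 promoters searched. In the promoters of names compared here it occurred in 35.9%. In the promoters of the kinase, kinetochore and spindle lists described next, it occurred in 57 of 82 (69.5%), for 73 of 93 symbols that matched. TTTGAA or TTCGAA occurred in 17.1% of all promoters, in 12.1% of those of names compared and in 32.9% of those 82. Both motifs together occurred in 6.02%, 4.74% and 28.05%. Among promoters of names at least 2 higher CCAAT occurred in 46.5%, and among those at least 2 lower in 15.4% of 65 promoters from 40 genes, some of which share a gene. CCAAT can share a base with either of the other motifs. A match is a string of letters and not a bound site, and the higher names include the mitotic lists.

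Cyclins and kinases of G2 and mitosis were higher in high-sum cells in 14 of 20 cases and lower in none. Their median difference was 3.20, against 0.23 for all names. Ccnb2, cyclin B2, ranged from 0 to 363 TPM (median 58.9) in high-sum cells and from 0 to 213 (median 0.449) in low-sum cells, a difference of 4.03. Cdk1, the catalytic partner of cyclins A and B, ranged from 0.949 to 821 TPM (median 99.8) against 0 to 595 (median 1.91), a difference of 3.83. Ccna2, cyclin A2, had the same difference, 3.83, and was detected in 14 of 18 cells of both the high-sum and the intermediate group but in 4 of 18 low-sum cells. Both cyclins and Cdk1 thus overlapped between the groups. The phosphatase Cdc25b (0.73) and the inhibitory kinase Pkmyt1 (0.31) differed least in this list.

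Kinetochore and spindle-checkpoint genes were higher in 25 of 34 cases and lower in none, with a median difference of 2.54. After Birc5, Mad2l1 and Cdca8 the largest values belonged to Bub1b (4.36), the kinetochore protein Cenpf (4.09) and Sgol1, the guardian of centromeric cohesion (3.98). The structural kinetochore subunits Mis12 (-0.44), Dsn1 (0.10) and Zwint (0.06) lay near the value of all names. Spindle and cytokinesis genes were higher in 27 of 39 cases and lower in none, median 3.20. Prc1, which bundles the central spindle, ranged from 0.402 to 661 TPM (median 89.7) in high-sum cells and from 0 to 243 (median 1.77) in low-sum cells, a difference of 4.37. Its highest value of all, 1490 TPM, was in a cell between the groups. The microtubule depolymerase Kif2a (-0.65) and the spindle-pole protein Numa1 (0.16), which also act outside mitosis, did not share this difference.

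Condensin and mitotic-chromatin genes were higher in 13 of 26 cases, median 2.01. Besides Ncapg they included Ncapd2 (3.45), another condensin subunit, H2afx (3.29), the histone variant phosphorylated at DNA breaks, and Mki67 (2.04). H2afz, another variant histone, ranged from 1156 to 7785 TPM in high-sum cells (median 2890) and from 14.1 to 3568 in low-sum cells (median 468), a difference of 3.24. The table gives the name H2afv identical values, so these names count as 1 measurement. Of 22 genes listed for the anaphase-promoting complex, its enzymes, regulators and related mitotic proteins, 5 were higher, median 1.31. They were Ube2c, Cdca3, Fbxo5 (3.05), the early mitotic inhibitor, Espl1 (2.05), the separase that cuts cohesin, and the small subunit Cdc26 (2.06). The core subunits Anapc1 (0.29), Cdc16 (0.20) and Anapc11 (0.07) did not differ by the called amount. Of the core subunits in the list, Cdc26 alone reached the called size.

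**Figure D3:**
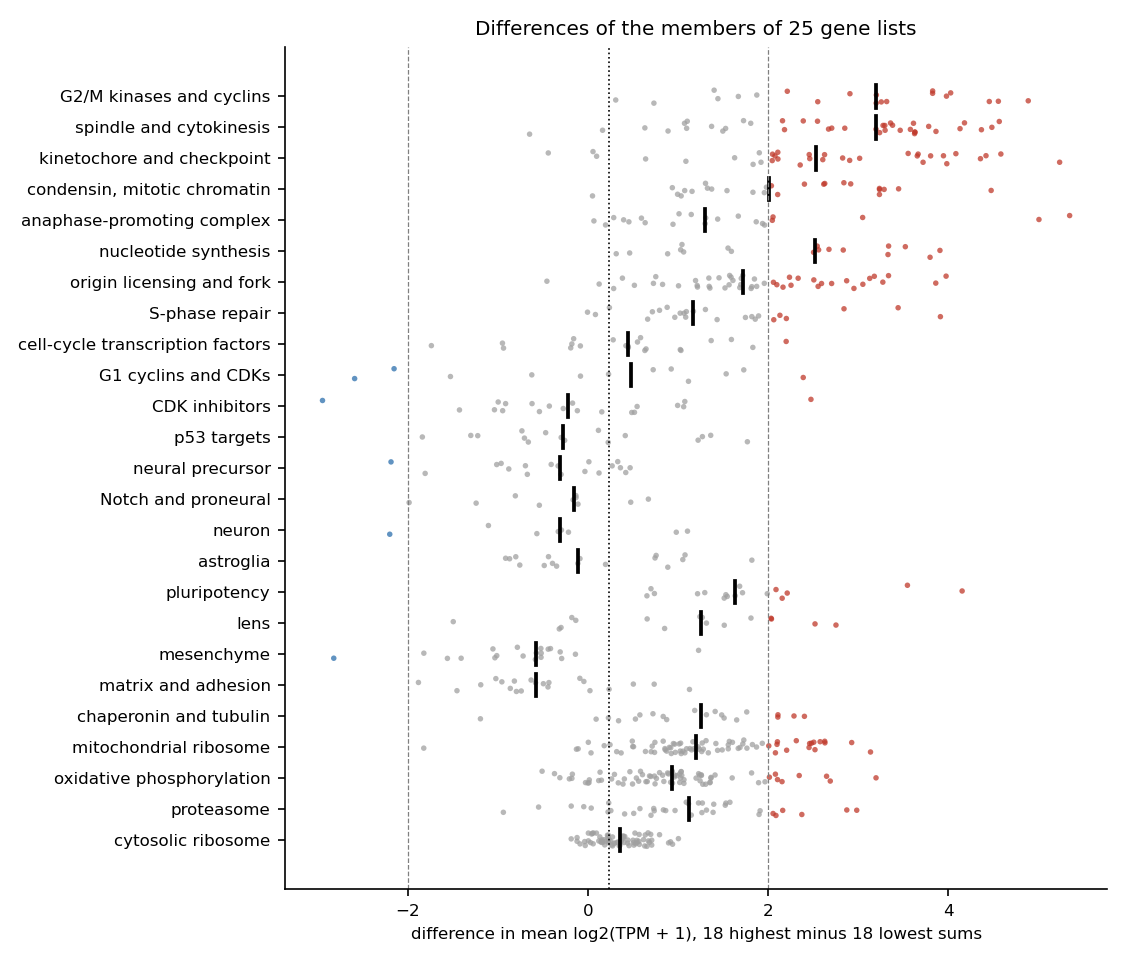
Difference in mean log2(TPM + 1), high-sum minus low-sum, for each measured member of 25 gene lists. Red points are at least 2 higher, blue points at least 2 lower, black bars are list medians, the dotted line is the median of all names (0.23) and dashed lines mark the called difference. The mitotic lists and nucleotide synthesis sit to the right, with no member at least 2 lower, and the cytosolic ribosome lies close to the dotted line.

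On this scale, the transcription factors of the program differed less than the mitotic lists. Of 21 E2F, FoxM1, B-Myb and DREAM genes, only Tfdp1, the partner of E2F factors, passed the called difference (2.20), and the median was 0.45. That count is close to the share of all names called higher, 3.92%. It depended on the scale. With the log2 ratio of mean TPM + 1, 5 of 21 were higher. With a pseudocount of 0.1, 3 were higher and 2 lower. Foxm1 had a difference of 1.59 and was detected in 10 of 18 high-sum and 3 of 18 low-sum cells. Mybl2, which encodes B-Myb, had 1.37 and was detected in 6 and 2 cells. Rbl2, the p130 protein of resting-cell DREAM, went the other way. It was detected in 2 of 18 high-sum and 10 of 18 low-sum cells, a difference of -1.74, short of the called size. These mRNAs were low in both groups, with medians of at most 4.395 TPM for E2f5, Foxm1, Mybl2 and Rbl2, so their differences rest on detection in few cells.

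Replication genes were also higher in high-sum cells but less evenly. Of 49 origin-licensing and fork genes, 19 were higher and none lower, median 1.72. Mcm5, a subunit of the replicative helicase, ranged from 1.04 to 445 TPM (median 60.0) in high-sum cells and from 0 to 263 (median 1.78) in low-sum cells, a difference of 3.34. Its highest value, 926 TPM, again belonged to an intermediate cell. Pcna ranged from 0 to 949 TPM (median 250) against 0 to 552 (median 28.4), a difference of 2.56. The primase subunit Prim1 (3.98) and Tipin (3.86), which protects stalled forks, led the list. Cdc6 (0.13), which loads the helicase, and Timeless (-0.45), the partner of Tipin, had no such difference, so the partners Tipin and Timeless diverged.

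Deoxynucleotide synthesis genes were higher in 10 of 18 cases, median 2.53. Dtymk, thymidylate kinase, had a difference of 3.91. Rrm2 ranged from 1.26 to 739 TPM (median 159) in high-sum cells and from 0 to 520 (median 7.82) in low-sum cells, a difference of 3.80, and its partner subunit Rrm1 had 3.52. Of 25 S-phase repair genes 6 were higher, among them the chromatin factor Atad2 (3.44) and the deubiquitinase Usp1 (2.84).

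Taking the lists as wholes showed how far mitotic and replication genes went together. The mean level of the 93 kinase, kinetochore and spindle genes ranged from 1.97 to 5.73 in high-sum cells and from 1.16 to 2.41 in low-sum cells on the log2(TPM + 1) scale. On this measure 17 of 18 high-sum cells lay above every low-sum cell, and 6 of 18 intermediate cells did too. The mean level of the 67 licensing, fork and nucleotide genes ranged from 1.85 to 5.95 and from 1.32 to 4.84, and here 6 of 18 high-sum cells lay above every low-sum cell. Of those 6, 4 were the cells with pluripotency markers described below, which leaves 2 of the other 14. The count rests on the low-sum cell in well B5: without it, an alternative chosen after seeing the data, 12 of 18 high-sum cells and 8 of the other 14 lay above every low-sum cell. The mitotic count was 17 of 18 without B5 as well, and the groups had themselves been cut on mitotic genes.

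Single cells outside the high-sum group had high replication levels. The low-sum cell in well B5 had 47 of the 67 replication genes at a TPM of at least 10, above the high-sum median of 41.5, and 33 of the 93 mitotic genes. Its sum was 7.02, and its mitotic level, 2.41, was the highest of the low-sum cells. The intermediate cell in well D8 had the highest replication level of all 54 (6.02), with 54 of 67 genes at that TPM and a sum of 9.95. Its mitotic level, 3.01, lay above every low-sum cell. In all, 4 of 18 intermediate cells and 1 low-sum cell exceeded the high-sum median of replication. Over the 54 cells the levels of both sets had a Spearman correlation of 0.73, and within the high-sum, intermediate and low-sum groups 0.53, 0.54 and 0.46. The points share libraries, and the replication level itself had a correlation of 0.40 with genes detected.

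**Figure D4:**
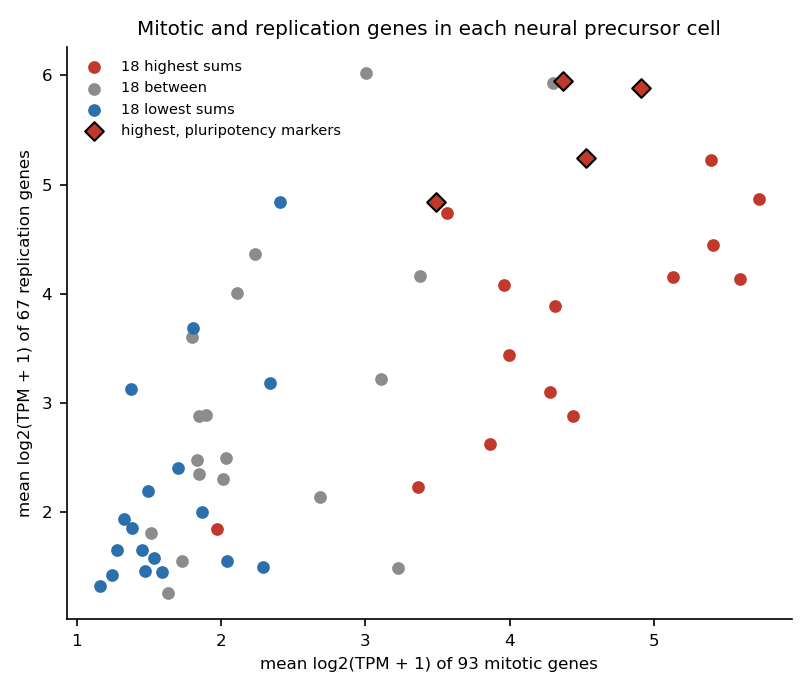
Mean log2(TPM + 1) of 93 mitotic genes (x axis) and of 67 replication genes (y axis) in each of 54 precursors, coloured by group, with diamonds for the 4 high-sum cells that carry pluripotency markers. Low-sum cell B5 (replication 4.84, mitotic 2.41) and 4 intermediate cells lie above the high-sum replication median, and the 4 diamonds lie in the upper part of the replication axis.

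The D-type cyclins split. Ccnd2, cyclin D2, ranged from 5.29 to 278 TPM in high-sum cells (median 69.6) and from 107 to 1154 in low-sum cells (median 379), a difference of -2.59. It was detected in all 36 cells, no high-sum cell exceeded the low-sum median, and its correlation with the sum, -0.62, was the lowest of all names detected in at least 27 cells. The table lists the same values under the name CYL2. Ccnd1, cyclin D1, ranged from 0 to 81.5 TPM (median 7.08) against 0.865 to 210 (median 47.7), a difference of -2.15. Ccnd3, cyclin D3, went the other way, from 0 to 468 TPM (median 65.5) against 0 to 157 (median 4.13), a difference of 2.39. All 3 kept their direction under each alternative tried, from -3.17 to -1.87 for Ccnd2, from -2.63 to -1.35 for Ccnd1 and from 1.34 to 3.72 for Ccnd3. Cdk4, their kinase, was present in all 36 cells and differed by 1.12.

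Among 20 inhibitors of cyclin-dependent kinases and other anti-proliferative genes 1 was higher, 1 lower and 18 neither. Cdkn2b, the p15 inhibitor of Cdk4 and Cdk6, ranged from 0 to 50.7 TPM (median 0.83) in high-sum cells and from 0 to 266 (median 79.8) in low-sum cells, a difference of -2.95. No high-sum cell exceeded the low-sum median, and 12 low-sum cells exceeded every high-sum cell. Cdkn2a, its neighbour gene, was near 0 in both groups. Cdkn3, a phosphatase of Cdk1 and Cdk2 that is itself a late-cycle gene, was higher (2.48). The p21 gene Cdkn1a, the classic p53 target, had a median of 54.2 TPM in high-sum and 148 in low-sum cells, a difference of -1.04, with 7 of 18 high-sum cells above the low-sum median. The p27 gene Cdkn1b had 1.06. None of 16 further p53 targets reached the called difference in either direction, and their median was -0.28. With 3.92% of all names called higher and 0.498% lower, few calls would fall in lists of these sizes.

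The other genes at the low end were not of 1 kind. Tmem37, which encodes a membrane protein related to calcium channel gamma subunits, ranged from 0 to 279 TPM (median 1.83) in high-sum cells and from 0 to 1117 (median 163) in low-sum cells, a difference of -3.76. Pdgfa, a growth factor, ranged from 0 to 67.8 TPM (median 4.07) against 0 to 361 (median 87), a difference of -3.08. Rras, a Ras-family GTPase, had -3.08 and was detected in 3 of 18 high-sum and 12 of 18 low-sum cells. Axl, the receptor tyrosine kinase bound by Gas6, had -2.96, and its ligand gene Gas6 0.52. For Tmem37, Rras and Axl, low-sum cells without the mRNA remained, so the ranges overlapped at 0.

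Next to these stood S100a4 (-2.82), a calcium-binding protein of motile mesenchymal cells, the tetraspanin Tspan6 (-2.72), the secreted protease Prss23 (-2.61) and Crabp1 (-2.53), which binds retinoic acid in the cytoplasm. The clone names AK189470 (-3.16) and AK194371 (-2.55) also belong here. F2r, the thrombin receptor, and the actin-binding protein Palld were among the names most negatively correlated with the sum (-0.48 and -0.58), with differences of -2.39 and -2.20.

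Neural markers, like most names compared, mostly did not reach the called difference. Of all names, 3.92% were at least 2 higher and 0.498% at least 2 lower. At those shares a list of this size holds few called members. Of 18 neural precursor genes that passed the filter (26 are in the table), 1 was lower and none higher, median -0.31. Nes had a median of 11.2 TPM in high-sum and 5.33 in low-sum cells (difference 0.47), and Sox2 6.90 and 4.21 (0.36). Without the 4 cells with pluripotency markers the Sox2 difference turned to -0.33. Pax6 was the lower one, from 0 to 341 TPM (median 50.9) against 0 to 1421 (median 205), a difference of -2.19. The table lists the same values under a clone name. Vim differed by -1.01, and by -0.36 without those 4 cells. Of 10 Notch and proneural genes that passed, none was called, and Hes5, a Notch target, differed by -0.30. Of 8 neuronal genes that passed, of 26 in the table, Ncam1 was lower (-2.20), and Tubb3, neuronal tubulin, had 0.98 on detection in 9 and 7 cells.

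The high-sum group held the 4 cells with pluripotency markers. These are the cells of wells E3, C9, E12 and D11. High-sum cell D7 and intermediate cell F10 had 2 of the 4 markers at a TPM of at least 10. Among cells with a single marker at that level, intermediate cell C3 had Pou5f1 at 410 TPM and high-sum cell B1 Nanog at 241. Dppa5a, an RNA-binding protein of naive pluripotent cells, ranged from 3114 to 7923 TPM in the 4 cells and had a median of 5.58 in the other 14 high-sum cells. It was not confined to the 4, with 1054 TPM in low-sum cell G9, 768 in high-sum cell D3 and 672 in intermediate cell C3. Vim ranged from 58.2 to 485 TPM in the 4, against a median of 835 in the other 14, and Pax6 from 0 to 31.7. Their mitotic level (3.49 to 4.91) lay within the range of the other high-sum cells, and their replication level was 4.84 to 5.95, against 1.85 to 5.22 in the other 14, so 3 of the 4 lay above that whole range.

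With these cells included, 5 of 17 pluripotency genes were higher, median 1.64. Without them 2 were, median 0.51: Dppa5a at 2.07 and Sall4, a zinc-finger factor, at 2.24, while Zfp42 went from 2.16 to 0.28 and Tdgf1, a Nodal co-receptor, from 2.09 to 0.17. Over all names, 447 were then higher and 60 lower, of which 357 and 48 were among the original calls. The mitotic lists kept their counts nearly whole, with 13 of 20 kinases and cyclins, 25 of 34 kinetochore and 27 of 39 spindle genes higher. Licensing and fork genes went from 19 to 13, mitochondrial ribosomal proteins from 16 to 8. Pax6 went to -1.54, and Pax6, Ncam1 and Tfdp1 then fell short of the called size.

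Lens genes were also uneven. Of 16 that passed, 4 were higher, median 1.26: the crystallins Cryba1 (2.75), Crybb3 (2.04) and Crygs (2.03), and Lim2 (2.52), a membrane protein of lens fibres. Cryba1 ranged from 0 to 3926 TPM in high-sum cells (median 428) and from 0 to 1655 in low-sum cells (median 21.9), so the groups overlapped nearly throughout. Cryaa had medians of 5956 TPM in high-sum, 2150 in intermediate and 1147 in low-sum cells, a difference of 1.27. Without the 4 cells with pluripotency markers, in which Cryaa ranged from 74.9 to 557 TPM, that difference was 2.35 and 7 of 16 lens genes were higher. Summed over the lens list, high-sum cells ranged from 126 to 64080 TPM and low-sum cells from 483 to 44996. The part of lens-type cells in the comparison was not tested.

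Mesenchymal genes leaned the other way without reaching the called size, apart from S100a4. Their summed TPM ranged from 425 to 10012 in high-sum and from 1529 to 11809 in low-sum cells, and the list's median was -0.58. Of its defining markers, Acta2 reached a TPM of 1 in 52 of 54 cells, Col3a1 in 49, Tagln in 32, Col1a1 in 14 and Col1a2 in 3. Matrix and adhesion genes had the same median and no called member among 21 (all names: 3.92% higher and 0.498% lower). Of the blood and endothelium markers, Ptprc was below a TPM of 1 in all 54 cells and Pecam1 reached it in 3, while the endothelial receptor Tek was detected in 7 high-sum, 6 intermediate and 9 low-sum cells. Whether the mix of cell types shaped the lower names was not tested.

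Growth-related machinery differed by smaller amounts. All but 6 of 78 cytosolic ribosomal proteins lay above 0, yet none reached the called difference and their median, 0.35, was close to that of all names, and 0.02 with cells centred on widely detected genes. Mitochondrial ribosomal proteins were higher in 16 of 76 cases (median 1.20), oxidative phosphorylation subunits in 8 of 75 (0.94) and proteasome subunits in 6 of 37 (1.12). Tubulins and chaperonins were higher in 4 of 20 cases (1.25), all 4 of them tubulins: Tuba1c (2.40), Tubb5 (2.29), Tubb2c (2.11) and Tubb6 (2.11). Tubb5 ranged from 256 to 2478 TPM in high-sum cells (median 1230) and from 15.4 to 1985 in low-sum cells (median 339). Of 24 cholesterol and lipid genes only Idi1, the isopentenyl isomerase, was higher (3.75). Glycolysis, unfolded-protein, and immediate-early and stress genes had no called member in either direction. The shares over all names were 3.92% higher and 0.498% lower.

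Whether the same genes followed the same 4-gene sum in other cells was described in the 4 mESC plates, each taken alone and normalized apart from the precursor table. Of 8552 names measured in all 4 plates, 27% had a rank correlation above 0 in every plate and 4.57% below 0 in every plate. For the mitotic lists, 15 of 19 kinases and cyclins, 25 of 34 kinetochore genes and 29 of 35 spindle genes were above 0 in all 4. The median correlation of spindle genes was 0.56 in precursors, 0.31 and 0.24 in serum, 0.31 in 2i, and 0.45 in Dgcr8-/- cells. For kinases and cyclins it was 0.52 in precursors, 0.35 and 0.24 in serum, 0.11 in 2i, and 0.45 in Dgcr8-/- cells. For kinetochore genes the values were 0.51, then 0.30 and 0.23, 0.17 and 0.25 in the same order. Aurka had 0.61 in precursors and from 0.56 to 0.69 in the plates. Cks2 had 0.71 and from 0.42 to 0.70. These counts describe genes of a shared program, and within a plate the cells share their chip and the sum's own relation to genes detected (Spearman 0.22 to 0.35 in the plates).

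Replication genes did not carry over in the same way. Of 49 licensing and fork genes, 7 were above 0 in all 4 plates, a share of the list below that of all names. Their median correlation was 0.30 in precursors, 0.23 and 0.09 in serum, -0.11 in 2i, and -0.01 in Dgcr8-/- cells. The precursor correlations include the 4 high-sum cells with pluripotency markers. Replication levels were 4.84 to 5.95 in those 4, against 1.85 to 5.22 in the other 14 high-sum cells. Rrm2 had 0.45 in precursors and -0.01, -0.10, -0.26 and -0.18 in the plates, and Pcna 0.41 against 0.17, -0.04, -0.12 and -0.23. Ccnd1, at -0.41 in precursors, had 0.39 and -0.02 in serum, 0.13 in 2i, and -0.06 in Dgcr8-/- cells, so it held no single direction there. No test of the difference between plates and precursors was made.

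**Figure D5:**
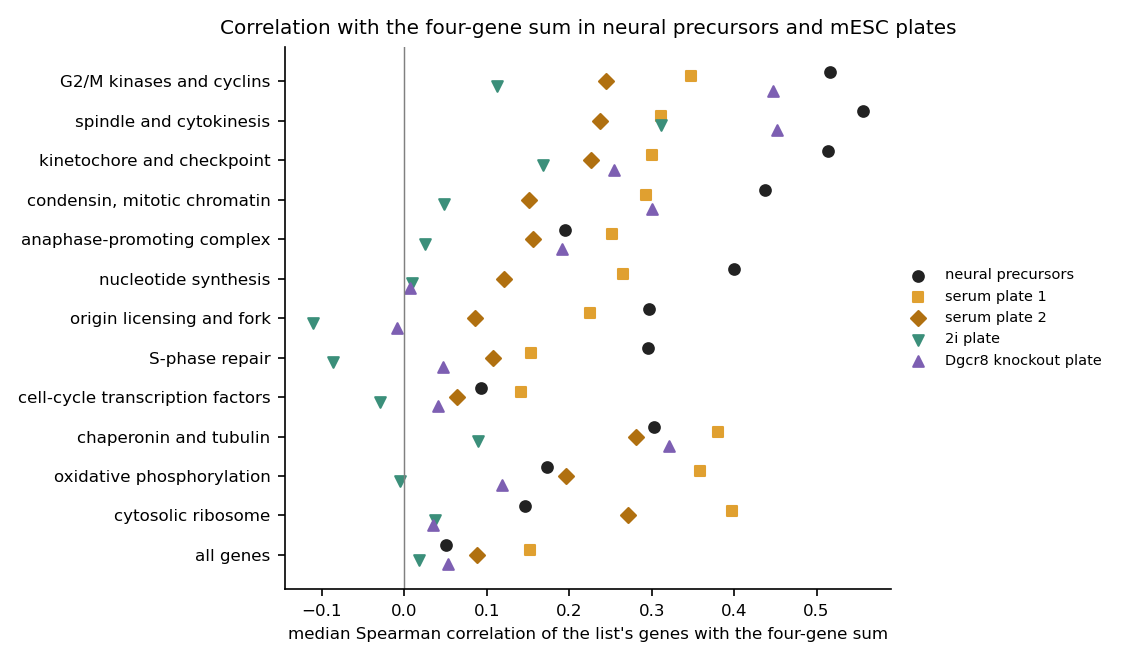
Median Spearman correlation of each list's genes with the 4-gene sum, computed within the precursors (54 cells) and within each mESC plate (90, 93, 94 and 84 cells), with all names at the bottom. Kinase, spindle and kinetochore medians are above 0 in every set of cells, whereas the licensing and fork median runs from 0.30 in precursors to -0.11 in 2i.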

How the data were processed

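RNA was measured in 54 single neural precursors, and 361 single mESCs served for the plate correlations. The deposited tables hold the natural log of TPM + 1: with the log reversed, a precursor's TPM values sum to 935813 at the lowest and 1123910 at the highest. Bowtie, RSEM and build mm9 are listed in the submitters' processing notes, with no role stated for any of them (not given in the sources used here). Names turned into dates or date numbers were left out (26 of 18873 in the precursor table). Of the names compared, 2776 share identical values with another name, 1461 of them redundant. Doublets were not called, and all 54 cells were kept.

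The log was reversed and log2(TPM + 1) taken. Names with a mean TPM of at least 1 were compared by group means, and a difference of 2 was called (Python 3.11.15, pandas 2.3.3, scipy 1.17.1). The 4 genes of the sum were left out. The script recovered a known shift when tested on simulated data. Named genes are the 12 highest and lowest called differences detected in at least 9 cells of the higher group, the 3 largest of each of 35 lists, 15 genes named at the outset and the 5 strongest correlations at each end, plus members needed to state a role. Members, lists and this rule were chosen with earlier results of these data known. Other sums, group sizes, pseudocounts, filters and adjustments were tried (19 planned, 3 added after seeing the data).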

Additional observations from a re-analysis of the deposited data

How the results depend on the processing

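The number of names at least 2 higher (543) and at least 2 lower (69) depended on the settings. It was 189 and 17 for the 27 highest against the 27 lowest cells, 906 and 257 for 12 against 12, 1459 and 384 with a pseudocount of 0.1, 68 and 7 with 10, 2524 and 774 when called from a difference of 1, and 128 and 4 from a difference of 3. Medians over cells gave 1306 and 275, the log2 ratio of mean TPM + 1 gave 1566 and 896, and centring on widely detected genes gave 313 and 179. With Plk1 left out of the sum it was 439 and 109, with the adjustment for genes detected 419 and 193, and within the shared range of genes detected (15 against 18 cells) 577 and 107. The 4 sums of 3 genes gave 397 to 587 higher names. Of 2726 values of 131 named genes, 32 moved by more than the spread between cells and 0 changed sign where called; of 734 list medians, 19 moved. The oligodendrocyte list has no value with a mean TPM of at least 10, as no member passes. No paired analysis was possible because no result comes from a test and the cells carry no replicate numbers. Depth is unknown, so a TPM of 0 may be a transcript that was missed.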
